A study of Homo sapiens with 96 samples.

Results

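IL1RL1, CD24, TNS4, RNASE1, TRANK1, MME, DES and CCDC80 are 8 genes studied in human K562 leukaemia cells. Their RNA was lower after a ligand meant to remove a tagged subunit of the Polycomb complex PRC1.1. They are 8 of the 60605 gene IDs counted in 4 of the 5 tables of the series, and all 8 are also among the 50037 symbols of the fifth table. The genes were chosen by measured falls in these same libraries, and which falls were used is not recorded. All values at 72 h in the time courses, and any value that placed a gene among the 8 largest falls of a comparison, are therefore counted as used and given as a description without a test. Tests are given only for the other comparisons. Below, a value, contrast or library said to have chosen a gene is one counted as used by this rule, not one known to have been used.

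RNA was sequenced from 96 libraries in 32 groups of 3. In the BCOR line, K562 cells with a BCOR-mAID degron were left untreated or given 5PhIAA for 2, 8, 24 or 72 h, and the KDM2B line, with a KDM2B-mAID degron, had the same 5 groups. mAID is a small degron tag, and 5PhIAA is the ligand that sends the tagged protein to the proteasome in cells with the matching plant-derived receptor. The construct table holds K562 lines named LF, SF, dLRRS, dCxxC and EV, each with 5PhIAA or with DMSO, the solvent. The labels do not spell these names out, and the deposited counts are named for a KDM2B mutant. The inhibitor table holds K562 cells with 5PhIAA and GSK343 together, with 5PhIAA, with GSK343 or with DMSO, and its deposited file is named for KDM2B-mAID. GSK343 inhibits EZH2, the methyltransferase of PRC2. The J2_7 table holds J2_7 cells and KDM2B-mAID cells, here called mAID cells, each with those same 4 treatments. Its file name mentions a JARID2 and AEBP2 double knockout and wild type, but whether J2_7 is that knockout is not stated. The labels state no dose, no treatment time outside the time courses and not whether a line is a single clone. No protein level is given, so loss of the tagged protein is inferred from the design. The comparison cells of the time courses are labelled untreated, with no solvent or hour named. Nothing says that the 3 libraries of a group came from separate cultures, so p-values measure the spread between libraries, which may be technical.

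PRC1.1 is a variant Polycomb complex in which BCOR and PCGF1 join the ubiquitin ligase RING1 or RNF2 with KDM2B. KDM2B carries a CXXC zinc finger that binds unmethylated CpG, which brings the complex to CpG islands, where it ubiquitinates histone H2A. Polycomb complexes are best known for keeping genes silent. K562 is an established line from chronic myeloid leukaemia with erythroid features.

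The 8 genes do not share a function. IL1RL1 encodes ST2, the receptor for interleukin-33. CD24 is a small glycoprotein held to the cell surface by a lipid anchor, and MME is neprilysin, or CD10, a surface peptidase. RNASE1 is a secreted ribonuclease and CCDC80 a protein of the extracellular matrix. TNS4 is a tensin, an adaptor of focal adhesions, and DES is desmin, the intermediate filament protein of muscle. TRANK1 encodes a large protein named for its tetratricopeptide and ankyrin repeats.

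They lie on 5 chromosomes in hg38, with coordinates from GENCODE 44. IL1RL1 spans chr2:102311502-102352037 on the plus strand and DES spans chr2:219418377-219426735 on the plus strand. TRANK1 is at chr3:36826819-36945057, CCDC80 at chr3:112596797-112649530 and MME at chr3:155024124-155183704, the first pair on the minus strand and MME on the plus strand. CD24 is at chr6:106969831-106975627, RNASE1 at chr14:20801228-20802855 and TNS4 at chr17:40475828-40501623, all on the minus strand. The count of MME can hold reads of its antisense gene MME-AS1, which shares 214 exonic bases, and that of DES can hold reads of an antisense transcript that shares 104, since the strand setting of the counting is not stated. IL1RL1 shares 95 exonic bases with its neighbour IL18R1 on the same strand. CD24 has near-identical pseudogene copies, so its count is uncertain in level.

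The start regions show whether the genes share the CpG-rich sequence that KDM2B binds. RefSeq (GRCh38.p14) windows running from 250 bases before to 50 bases after a gene start were found for 6 of the 8 genes, TNS4 and DES having none. Of each of 4 genes the first listed window is printed 5′ to 3′, with every CG dinucleotide, a palindrome that reads the same on both strands, in capitals. The IL1RL1 window is chr2:102337007-102337306 (plus strand), that of CCDC80 is chr3:112641094-112641393 (minus), that of TRANK1 is chr3:36945005-36945304 (minus) and that of CD24 is chr6:106975578-106975877 (minus).
IL1RL1: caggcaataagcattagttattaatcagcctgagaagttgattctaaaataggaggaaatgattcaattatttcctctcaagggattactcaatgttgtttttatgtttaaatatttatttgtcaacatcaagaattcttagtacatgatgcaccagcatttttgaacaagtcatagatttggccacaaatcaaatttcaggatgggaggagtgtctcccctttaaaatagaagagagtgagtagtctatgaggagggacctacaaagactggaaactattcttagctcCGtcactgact
CCDC80: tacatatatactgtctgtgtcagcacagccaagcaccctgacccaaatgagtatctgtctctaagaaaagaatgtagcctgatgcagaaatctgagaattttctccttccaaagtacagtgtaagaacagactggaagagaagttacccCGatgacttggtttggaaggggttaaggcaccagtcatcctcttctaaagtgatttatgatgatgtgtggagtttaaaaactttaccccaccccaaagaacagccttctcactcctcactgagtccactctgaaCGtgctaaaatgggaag
TRANK1: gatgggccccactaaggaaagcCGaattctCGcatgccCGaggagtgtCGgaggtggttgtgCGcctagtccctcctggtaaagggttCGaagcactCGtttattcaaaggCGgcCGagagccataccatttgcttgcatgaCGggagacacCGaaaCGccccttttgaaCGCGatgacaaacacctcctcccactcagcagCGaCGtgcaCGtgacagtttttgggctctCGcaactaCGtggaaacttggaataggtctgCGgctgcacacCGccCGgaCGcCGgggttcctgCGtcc
CD24: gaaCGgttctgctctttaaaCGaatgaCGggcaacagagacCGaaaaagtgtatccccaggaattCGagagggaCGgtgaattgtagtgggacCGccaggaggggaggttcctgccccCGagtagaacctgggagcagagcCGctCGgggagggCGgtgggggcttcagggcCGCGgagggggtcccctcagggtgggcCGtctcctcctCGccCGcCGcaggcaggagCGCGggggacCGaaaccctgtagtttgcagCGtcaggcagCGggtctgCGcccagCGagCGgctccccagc
IL1RL1 had 1 CG in its window and CCDC80 had 2, while TRANK1 and CD24 each had 25. RNASE1 had 5 in its first window and MME had 19. Over all 35116 windows of 300 bases the median was 14, and 96% held at least 1. The IL1RL1 count stood at the 11th percentile, that of CCDC80 at percentile 18.2, RNASE1 at 33.7, MME at 58.8, and TRANK1 and CD24 at 69.9. By their first windows, 3 of the 6 genes lay below the median count and 3 above it. CD24 has 3 windows with 21 to 36 CG, MME has 4 with 19 to 30, RNASE1 and IL1RL1 have 2 each, and no binding was measured in these files.

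**Figure D1:**
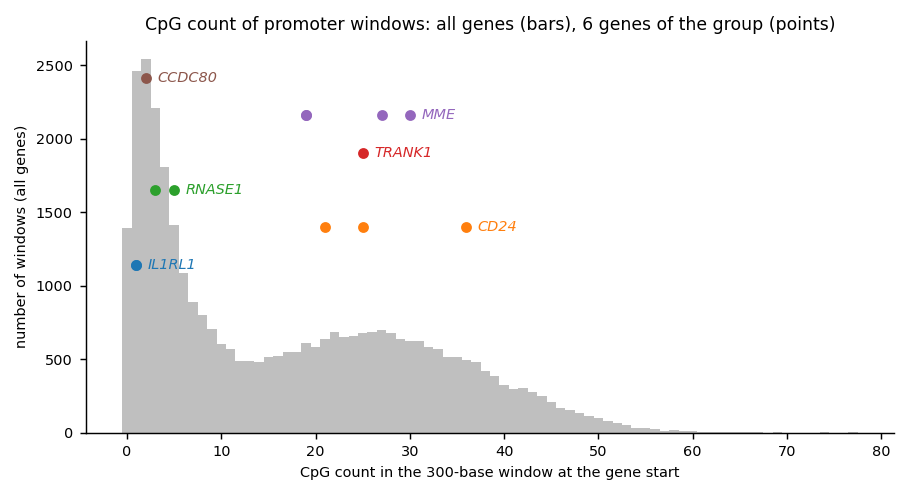
Number of CpG in 300-base windows at gene starts (x axis) against the number of windows of all genes with that count (y axis, grey bars); coloured points mark the windows of 6 of the 8 genes, and their height only separates the genes. IL1RL1, CCDC80 and RNASE1 windows hold 5 or fewer, while TRANK1, CD24 and MME windows hold 19 or more.

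Library totals ran between 5806624 and 18519442 counts in the BCOR table, 10429112 and 19910440 in the KDM2B table, 2346542 and 22611557 in the construct table, 4268383 and 24545679 in the inhibitor table, and 782663 and 12740071 in the J2_7 table. Levels are given in CPM, counts scaled by the library's TMM-adjusted total, and are compared only within a table. The erythroid factor GATA1 ran between 142 and 330 CPM over all libraries. Other erythroid markers varied more, HBG2 between 15.3 and 231 CPM in the construct table and TFRC between 141 and 410 CPM in the J2_7 table. The muscle factor MYOD1 was at 0 in every library although DES was present. Of the 11 muscle markers, TNNT1 had a median above 1 CPM in each table, and TAGLN in each but the inhibitor table. The muscle markers summed to between 56.8 and 89.6 CPM in the construct table and between 161 and 268 CPM in the J2_7 table. The 10 B-lymphoid markers summed to between 0.394 and 5.8 CPM although CD24 and MME are known from B-cell precursors. In bulk RNA, fewer cells that express a gene and less RNA per cell cannot be told apart.

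Some libraries of the time courses stood apart from the others of their group. In the BCOR table, library 3 of the untreated, 2, 8 and 24 h groups lay at one end of the first component of the within-group variance, which took 32.7% of it. In the KDM2B table the first component took 37.5%, and untreated library 2 and library 3 at 2, 8, 24 and 72 h had the highest scores. Some other libraries lay far out at the opposite end there, the untreated ones scoring -2.3, 13.7 and -11.4. Several of the 8 genes moved with this split. TNS4 was at 13.7, 5.94, 8.03, 8.13 and 7.11 CPM in those KDM2B-line libraries at 0, 2, 8, 24 and 72 h, against 0.656 to 2.96 CPM in the other KDM2B-line libraries. TRANK1 was at 29.4, 24.2, 17 and 25.2 CPM in the BCOR-line libraries apart at 0, 2, 8 and 24 h, each below the other libraries of its group. The part of this split in the results was not tested, and counts without the library with the highest component score in each group, an alternative chosen after seeing the data, are given beside the main ones. In the BCOR line at 72 h that alternative drops library 2, which scored 1.2 beside -0.9 and -0.4 and did not stand apart.

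A gene was called lower where edgeR's quasi-likelihood test gave a Benjamini-Hochberg adjusted p under 0.05 and the log2 fold change was beyond 0.585 downward, over all genes tested in the table. TNS4 was too low to be tested in the BCOR table, which leaves 7 of the 8 genes there.

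At 2 and 8 h none of the 8 genes was called in either line in the main fit, where the calls appeared at 24 h and 72 h. That fit did not pair libraries by number, although 14 of 15 BCOR-table libraries correlated best with their own number. A fit that allowed for library number called TRANK1 at 8 h in the BCOR line and more genes at 24 h. At 2 h, 0 of 7 genes were called lower in the BCOR line (0.213% of all genes tested) and 0 of 8 in the KDM2B line (0.489%). At 8 h, 0 of 7 were called lower in the BCOR line (0.262%) and 0 of 8 in the KDM2B line (0.558%). At 24 h, 1 of 7 was called lower in the BCOR line, DES (1.16%), and 1 of 8 in the KDM2B line, IL1RL1 (2.97%). At 72 h, where genes were chosen, 6 of 7 were past the thresholds in the BCOR line (2.37%) and 6 of 8 in the KDM2B line (3.96%). Without the library apart in each group the 24 h counts were 3 in the BCOR line and 2 in the KDM2B line, and both 72 h counts were again 6, though in the KDM2B line with TNS4 past the thresholds in place of RNASE1. The earlier times share their untreated libraries with the 72 h contrasts. The median log2 change of the tested genes was -0.17, -0.28, -0.93 and -1.98 at 2, 8, 24 and 72 h in the BCOR line, where that of all genes at 72 h was 0.00. In the KDM2B line it was -0.23, -0.42, -0.47 and -1.27, against -0.01 for all genes at 72 h.

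IL1RL1 fell in the KDM2B line from 24 h. It had 2.89, 2.73 and 5.1 CPM in untreated KDM2B-line cells, averaged 2.76 ± 0.843 at 2 h and 2.34 ± 1.25 at 8 h (SD, n = 3), and had 1.52, 1.15 and 0.722 CPM at 24 h and 0.689, 0.59 and 0.459 CPM at 72 h. The libraries at 24 and 72 h all lay below every untreated one. The log2 change was -1.62 ± 0.36 (SE) at 24 h and -2.61 ± 0.42 at 72 h, both among the values that chose the gene. In the BCOR line it was low throughout, with 0.502, 1.94 and 0.542 CPM untreated and 0.272, 0.504 and 0.057 CPM at 72 h, or 4, 8 and 1 counts. These groups overlapped by 1 library, and the log2 change at 72 h was -1.94 ± 0.57, short of the call without 72 h library 1 (-1.94) or 3 (-1.42).

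CD24 was lower at 72 h in both lines. It had 151, 287 and 94.6 CPM in untreated BCOR-line cells, 116, 135 and 155 CPM at 24 h and 63.7, 67.1 and 46.8 CPM at 72 h. The untreated libraries spread widely, and each 72 h library lay below all of them. In the KDM2B line CD24 had 62.3, 78.5 and 67 CPM untreated, 61.6, 45.7 and 46.7 CPM at 8 h, 49.1, 49.9 and 59.8 CPM at 24 h and 24.4, 24.7 and 30.4 CPM at 72 h. The log2 change at 8 h was -0.43 ± 0.13 (adjusted p = 0.0393) and at 24 h -0.39 ± 0.13 (adjusted p = 0.027), both short of the size needed for a call. At 72 h it was -1.38 ± 0.14 in the KDM2B line and -1.59 ± 0.45 in the BCOR line. Of the omissions of a library, the BCOR-line value stayed past both thresholds only in that of untreated library 3 (-1.90). It was -1.70 and -1.06 without untreated library 1 or 2 and -1.65, -1.70 and -1.45 without 72 h library 1, 2 or 3. These fell short on adjusted p, not on size.

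MME, the surface peptidase, was lower in the BCOR line. It had 7.24, 11.2 and 5.11 CPM in untreated BCOR-line cells, averaged 7.89 ± 3.52 at 2 h and 8.19 ± 2.32 at 8 h (SD, n = 3), and had 3.52, 4.92 and 4.6 CPM at 24 h and 1.56, 1.32 and 1.65 CPM at 72 h. The 24 h libraries all lay below the untreated ones. The change of -0.93 ± 0.35 was not called in the main fit, which did not pair libraries by number (adjusted p = 0.0897). Without the libraries apart it was -1.22 with an adjusted p of 0.0467. At 72 h the log2 change was -2.40 ± 0.37. In the KDM2B line MME had 6.51, 4.56 and 8.58 CPM untreated and 7.14, 4.06 and 2.6 CPM at 72 h. These groups overlapped, with a log2 change of -0.53 ± 0.46.

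RNASE1 was lower at 72 h in both lines. In the BCOR line it had 8.03, 7.19 and 4.18 CPM untreated, 3.4, 4.92 and 1.87 CPM at 24 h and 1.9, 1.07 and 1.94 CPM at 72 h. The 24 h change of -0.91 ± 0.32 was not called in the main fit, which did not pair libraries by number (adjusted p = 0.0718). Without the libraries apart it was -0.94 with an adjusted p of 0.00356. RNASE1 in the KDM2B line had 3.76, 4.39 and 4.05 CPM untreated, 2.93, 2.38 and 3.02 CPM at 24 h and 1.98, 3.02 and 1.45 CPM at 72 h. The log2 change at 72 h was -0.89 ± 0.26 in the KDM2B line and -1.98 ± 0.33 in the BCOR line. The KDM2B-line value was -0.62 without the libraries apart and -0.68 without 72 h library 3, both short of a call on adjusted p, not on size.

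CCDC80, the matrix gene, was lower at 72 h in the KDM2B line. It had 4.26, 2.15 and 4.45 CPM untreated, 2.88, 1.92 and 1.25 CPM at 24 h and 1.64, 1.18 and 0.459 CPM at 72 h there. Each 72 h library lay below every untreated one, and the log2 change was -1.75 ± 0.46. At 24 h it was -0.82 ± 0.40 and not called (adjusted p = 0.133), while without the libraries apart it was -0.83 with an adjusted p of 0.0183. In the BCOR line CCDC80 had 1.08, 1.13 and 1.32 CPM untreated, 0.247, 0.798 and 0.511 CPM at 24 h and 0.747, 0.756 and 0.399 CPM at 72 h. The groups did not overlap at 24 h, yet 3 to 6 counts per library stand behind those levels. The change of -1.36 ± 0.47 was not called in the main fit, which did not pair libraries by number (adjusted p = 0.0542).

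DES was the gene called at 24 h in the BCOR line. It had 24.2, 24.1 and 15.1 CPM untreated, 21.7, 24.1 and 20.7 CPM at 8 h, 11.1, 9.44 and 9.37 CPM at 24 h and 4.28, 4.79 and 5.64 CPM at 72 h. Every 24 h library lay below every untreated one, with a log2 change of -1.07 ± 0.20 (adjusted p = 0.00248), which shares its untreated libraries with the 72 h contrast that chose the gene. DES in the KDM2B line had 31.7, 36.3 and 36 CPM untreated, 31.7, 24.4 and 28.5 CPM at 24 h and 13.9, 13.2 and 16.4 CPM at 72 h. The 24 h change there was -0.29 ± 0.11 (adjusted p = 0.0407), short of the size for a call. At 72 h it was -1.26 ± 0.11 in the KDM2B line and -2.11 ± 0.21 in the BCOR line.

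TRANK1 had the largest fall of the 8 genes in the BCOR line at 72 h. It had 62.2, 85.2 and 29.4 CPM untreated, 27, 49.9 and 17 CPM at 8 h, 39.1, 46.9 and 25.2 CPM at 24 h and 8.01, 9.83 and 7.47 CPM at 72 h. The groups overlapped at 8 h (-0.87 ± 0.50, adjusted p = 0.345) and at 24 h and were apart at 72 h, where the log2 change was -2.82 ± 0.55. Each 8 h library was nonetheless below the untreated library of the same number, and the fit that allowed for library number called TRANK1 at 8 h. In the KDM2B line TRANK1 had 25.2, 28.7 and 31.8 CPM untreated, 23.8, 16.5 and 21.7 CPM at 2 h, 32.3, 25.4 and 26.2 CPM at 24 h and 11, 10.5 and 13.5 CPM at 72 h. It was thus lower in every 2 h library than in every untreated one (log2 change -0.47 ± 0.15, adjusted p = 0.0692), level at 24 h (-0.02 ± 0.14) and lower at 72 h (-1.29 ± 0.16).

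TNS4, the tensin, was highest in the KDM2B-line libraries apart. In the BCOR line it had 7, 21 and 9 counts untreated and 2, 3 and 5 counts at 72 h, too few for the filter. In the KDM2B line it had 2.96, 13.7 and 1.62 CPM untreated and 0.689, 0.656 and 7.11 CPM at 72 h, and the untreated and 72 h groups overlapped. The log2 change at 72 h was -1.10 ± 1.24, short of the thresholds, and it was -1.78 without the libraries apart, past them.

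**Figure D2:**
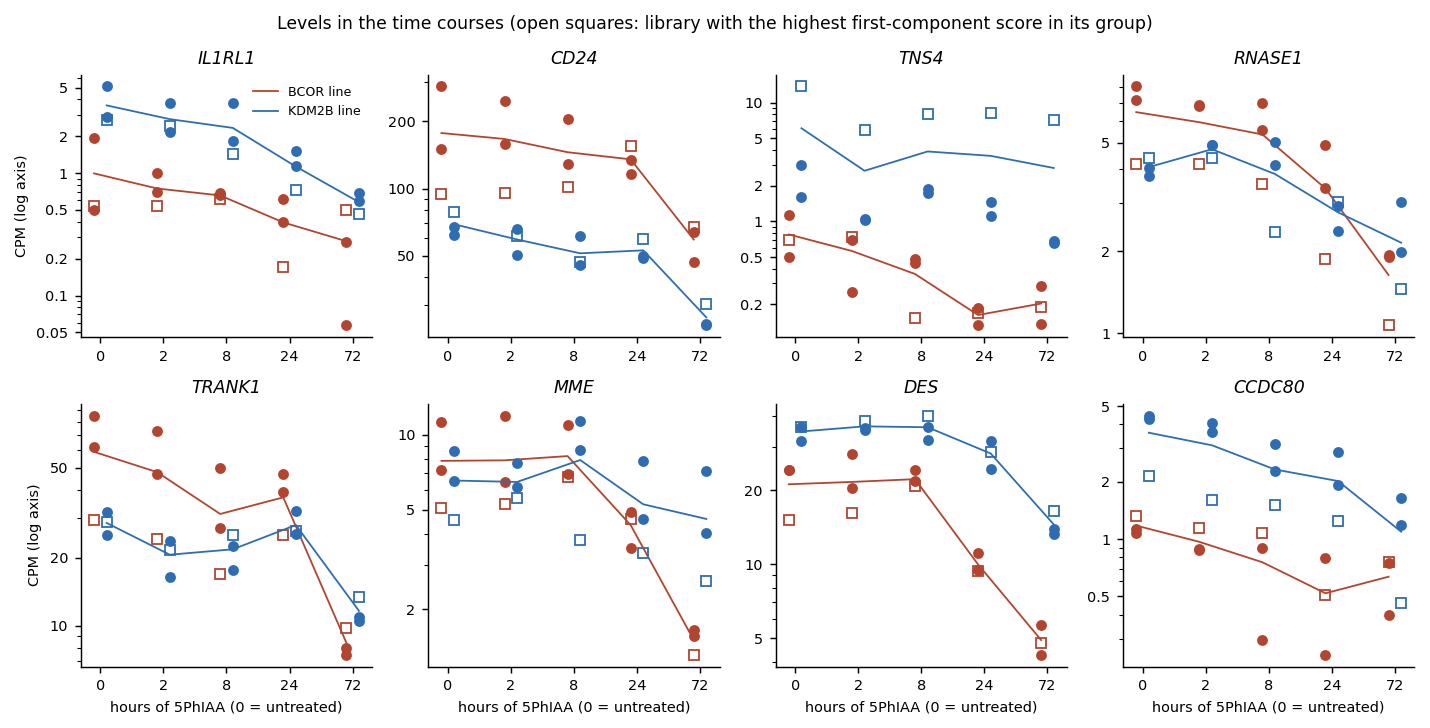
CPM on a log axis (y) against hours of 5PhIAA, with 0 for untreated cells (x), for the 8 genes in the BCOR line and the KDM2B line; each point is a library, lines join group means, and open squares are the library with the highest first-component score of each group. DES in the BCOR line is at 9.37 to 11.1 CPM at 24 h, and TNS4 open squares lie above the other KDM2B-line libraries at each hour.

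The difference between the lines was tested as an interaction in a fit over both time courses. At 2 h it was called for 0 of 8 genes (0.00664% of all genes tested) and at 8 h for 0 of 8 (0.219%). At 24 h it was called for 1 of 8, DES (7.53%), whose log2 change was higher by 0.81 ± 0.23 in the KDM2B line than in the BCOR line (adjusted p = 0.0157). That call was lost on leaving out BCOR-line untreated library 1 or 2, BCOR-line 24 h library 2 or KDM2B-line 24 h library 1, with values of 0.68 to 0.75 there and adjusted p up to 0.0556. At 72 h, where 4.19% of all genes tested were past the thresholds in either direction, the KDM2B-minus-BCOR differences, given as a description, were 1.89 ± 0.64 for MME, 1.56 ± 0.59 for TRANK1, 1.12 ± 0.45 for RNASE1, 0.88 ± 0.24 for DES, 0.84 ± 2.01 for TNS4, 0.24 ± 0.50 for CD24, -0.64 ± 0.85 for IL1RL1 and -0.82 ± 0.65 for CCDC80. Past the thresholds stood 1 of the 8, DES, and it fell short in 6 of 12 omissions of a library, with values of 0.77 to 1.07 over all 12. The 2 lines were also measured in separate tables with their own untreated cells, so line and table cannot be told apart.

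The construct table asks whether the lines LF, SF, dLRRS and dCxxC alter the response to 5PhIAA seen in EV. With DMSO, KDM2B RNA averaged 3620 CPM in dCxxC, 2930 CPM in dLRRS, 2390 CPM in LF and 898 CPM in SF, against 82.1 CPM in EV. With 5PhIAA, 3 of 8 genes were called lower in EV (0.321% of all genes tested), TNS4, RNASE1 and DES, and 3 of 8 in dLRRS (0.214%), IL1RL1, CD24 and TNS4. None was called lower in LF (0 of 8, 0%), in SF (0 of 8, 0%) or in dCxxC (0 of 8, 0%), where no gene at all was called lower. The median log2 change of the 8 was -0.53 in dLRRS, -0.02 in dCxxC, -0.02 in LF and 0.03 in SF, against -0.53 in EV, and that of all genes lay between 0.00 and 0.01 in these 5 lines.

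In EV, DES had 27.9, 22.8 and 22.4 CPM with 5PhIAA, against 34.5, 34.6 and 37.2 CPM with DMSO. The groups did not overlap, and the log2 change was -0.61 ± 0.08 (adjusted p = 1.67e-06), just past the size threshold. It was -0.57 or -0.58 on leaving out DMSO library 3 or 5PhIAA library 2 or 3, which ends the call on size alone. TNS4 had 2.25, 1.46 and 0.973 CPM with 5PhIAA, against 2.4, 2.34 and 2.43 CPM with DMSO, a log2 change of -0.87 ± 0.24. That fall went unranked because its mean was under 2 CPM. It is given as a description, since it may have chosen the gene. The TNS4 call was lost on adjusted p without 5PhIAA library 3, where the change was -0.60. RNASE1 had 7.66, 5.33 and 4.93 CPM with 5PhIAA, against 9.33, 8.45 and 10 CPM with DMSO, a log2 change of -0.78 ± 0.16 that was among the values choosing the gene. IL1RL1 was not called (-0.59 ± 0.21, adjusted p = 0.0667), and was -0.68 (adjusted p = 0.0416) without 5PhIAA library 1. That library was the shallowest of the table and had the highest level of IL1RL1, CD24, TNS4, RNASE1, TRANK1 and DES in its group. CD24 had 38.3, 30.6 and 33.3 CPM with 5PhIAA, against 44.2, 41.6 and 49.7 CPM with DMSO, without overlap but with a change of only -0.46 ± 0.09 (adjusted p = 0.000305). MME had 4.96, 4.86 and 5.19 CPM with 5PhIAA, against 4.69, 4.33 and 5 CPM with DMSO (log2 change 0.11 ± 0.16, adjusted p = 0.735).

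In dLRRS, CD24 had 81.7, 78.4 and 85.7 CPM with 5PhIAA, against 123, 118 and 133 CPM with DMSO (log2 change -0.61 ± 0.07, adjusted p = 5.3e-08). The size fell under the threshold, at -0.56 and -0.58, on leaving out DMSO library 3 or 5PhIAA library 2. IL1RL1 had 16.4, 14.9 and 14 CPM with 5PhIAA, against 22.7, 24.4 and 25 CPM with DMSO, and TNS4 had 3.04, 4.04 and 3.8 CPM with 5PhIAA, against 6.09, 5.98 and 5.7 CPM with DMSO. Their log2 changes, -0.67 ± 0.11 and -0.71 ± 0.16, were among the values that chose these genes. TRANK1 had 27.5, 29.6 and 27.5 CPM with 5PhIAA, against 39.3, 36.4 and 38.7 CPM with DMSO, a change of -0.44 ± 0.09 (adjusted p = 0.000445) too small for a call.

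The difference of the 5PhIAA response from that of EV was tested directly. It was called for 4 of 8 genes in SF (0.729% of all genes tested), for 1 of 8 in dCxxC (1.51%), for 0 of 8 in LF (0.748%) and for 0 of 8 in dLRRS (0.0377%). The SF count includes RNASE1, whose difference subtracts the EV change that was among the values choosing it and is a description. In SF, CD24 had 55.6, 43.7 and 45.6 CPM with 5PhIAA, against 36.5, 30.2 and 34.1 CPM with DMSO, so that it was higher in every 5PhIAA library. Its log2 change exceeded that of EV by 0.98 ± 0.12 (adjusted p = 2.13e-06). DES had 38.1, 38.2 and 39 CPM with 5PhIAA in SF, against 37.4, 38.4 and 38 CPM with DMSO, a difference from EV of 0.63 ± 0.11 (adjusted p = 0.000951). Both calls were kept whichever of the 12 libraries was left out. The SF difference of 0.60 ± 0.14 for TRANK1 (adjusted p = 0.0201) was lost in 6 of 12 such omissions, with values of 0.51 to 0.69 over all 12. That of 0.80 ± 0.22 for RNASE1 is a description, since it subtracts the EV change among the values that chose the gene. It fell short of the thresholds in 10 of 12 omissions, with values of 0.69 to 0.95. In dCxxC the difference for CD24 was 0.61 ± 0.12 (adjusted p = 0.000974), which was 0.53, 0.52 and 0.57 without EV DMSO library 3, EV 5PhIAA library 2 or dCxxC 5PhIAA library 3. In LF, TRANK1 differed by 0.58 ± 0.14 (adjusted p = 0.027), CD24 by 0.47 ± 0.12 (adjusted p = 0.0296) and DES by 0.44 ± 0.11 (adjusted p = 0.0281), all under the size threshold. The LF difference of TRANK1 was called, at 0.67, 0.66 and 0.65, without EV DMSO library 2, LF DMSO library 2 or LF 5PhIAA library 2. In dLRRS the differences from EV were -0.08 ± 0.25 for IL1RL1, -0.15 ± 0.11 for CD24, 0.16 ± 0.29 for TNS4 and -0.02 ± 0.14 for TRANK1, which does not show that the responses were alike.

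The genes also differed between the lines with DMSO, before any ligand. Of the 8, 6 were called in dLRRS against EV (11.9% of all genes tested in either direction, 4.82% higher), all higher. IL1RL1 had 22.7, 24.4 and 25 CPM in dLRRS, against 3.15, 2.9 and 3.19 CPM in EV, a log2 change of 2.97 ± 0.13. CD24 had 123, 118 and 133 CPM in dLRRS, against 44.2, 41.6 and 49.7 CPM in EV (1.47 ± 0.08, adjusted p = 9.47e-20). CCDC80 had 5.17, 5.85 and 5.32 CPM in dLRRS, against 1.89, 1.39 and 1.53 CPM in EV (1.77 ± 0.23, adjusted p = 5.13e-08). TNS4, TRANK1 and RNASE1 were higher by 1.31 ± 0.17, 1.06 ± 0.09 and 0.84 ± 0.12, while MME (-0.29 ± 0.15) and DES (0.06 ± 0.07) were not called. The dLRRS DMSO libraries are the same ones against which the dLRRS 5PhIAA change was measured, and IL1RL1 and TNS4 were chosen there, so their values are a description. Markers of mast cells and basophils, cells known to carry IL1RL1, were also called higher in dLRRS. MS4A2, a chain of the high-affinity IgE receptor, averaged 11.1 CPM in dLRRS, against 1.19 CPM in EV (3.19 ± 0.20, adjusted p = 1.09e-16), and HDC, the histamine-forming enzyme, averaged 2.54 CPM in dLRRS, against 0.208 CPM in EV (3.61 ± 0.43, adjusted p = 5.89e-09). These were 2 of the 4 tested of 8 such markers, whose sum ran between 234 and 251 CPM in dLRRS, against 215 and 233 CPM in EV. Without GATA2 the sum ran between 15.6 and 19.4 CPM in dLRRS, against 4.1 and 4.41 CPM in EV, and CPA3, TPSAB1 and TPSB2 were at 0 in both. Their part in the IL1RL1 difference was not tested.

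In dCxxC against EV, 4 of 8 genes were called (19.2% in either direction, 8.93% lower), all lower. DES had 6.76, 6.69 and 5.49 CPM in dCxxC, against 34.5, 34.6 and 37.2 CPM in EV (log2 change -2.48 ± 0.10, adjusted p = 2.41e-24). RNASE1 had 2.45, 2.45 and 3.11 CPM in dCxxC, against 9.33, 8.45 and 10 CPM in EV (-1.78 ± 0.17), and the EV libraries are those that chose it. TNS4 and IL1RL1 had log2 changes of -0.92 ± 0.22 and -0.86 ± 0.21. CD24 and MME were higher in every dCxxC library, short of the size for a call. CD24 had 67.9, 66 and 65.3 CPM in dCxxC, against 44.2, 41.6 and 49.7 CPM in EV (0.56 ± 0.08, adjusted p = 9.73e-08), and was called higher without EV library 3 (0.65) or dCxxC library 3 (0.59). MME had 7.02, 6.17 and 7.15 CPM in dCxxC, against 4.69, 4.33 and 5 CPM in EV (0.55 ± 0.14, adjusted p = 0.00176), and was called higher without EV library 3 (0.61) or dCxxC library 2 (0.61). With 5PhIAA, DES was at 5.64, 6.34 and 5.71 CPM in dCxxC. The erythroid marker HBG2 was called lower against EV with DMSO in dCxxC (-2.93 ± 0.46), and also in SF (-2.24 ± 0.43), LF (-1.85 ± 0.43) and dLRRS (-1.54 ± 0.41). Its part in the DES difference was not tested.

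In SF, 3 of 8 genes were called against EV with DMSO (13.6% in either direction, 9.47% lower), all lower. MME had 1.13, 1.35 and 1.62 CPM in SF, against 4.69, 4.33 and 5 CPM in EV (-1.75 ± 0.19, adjusted p = 2.52e-10), and IL1RL1 and RNASE1 had log2 changes of -1.02 ± 0.20 and -0.72 ± 0.14. Of the mast cell markers MS4A2 was lower as well, at 0.233 CPM in SF, against 1.19 CPM in EV (-2.33 ± 0.41, adjusted p = 1.21e-05), while KIT was higher (1.18 ± 0.19). In LF, 2 of 8 were called (15.3%): MME was lower, with 2.76, 2.37 and 2.8 CPM in LF, against the same EV values (-0.82 ± 0.17, adjusted p = 0.000147), and IL1RL1 was higher, with 4.39, 5.21 and 6.06 CPM in LF, against 3.15, 2.9 and 3.19 CPM in EV (0.77 ± 0.17, adjusted p = 0.000229). MS4A2 was lower (-1.06 ± 0.36) and KIT higher (1.18 ± 0.20) in LF, and HDC (1.55 ± 0.56) and KIT (0.77 ± 0.21) were higher in dCxxC, where IL1RL1 was lower. The part of these markers in the IL1RL1 differences was not tested.

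**Figure D3:**
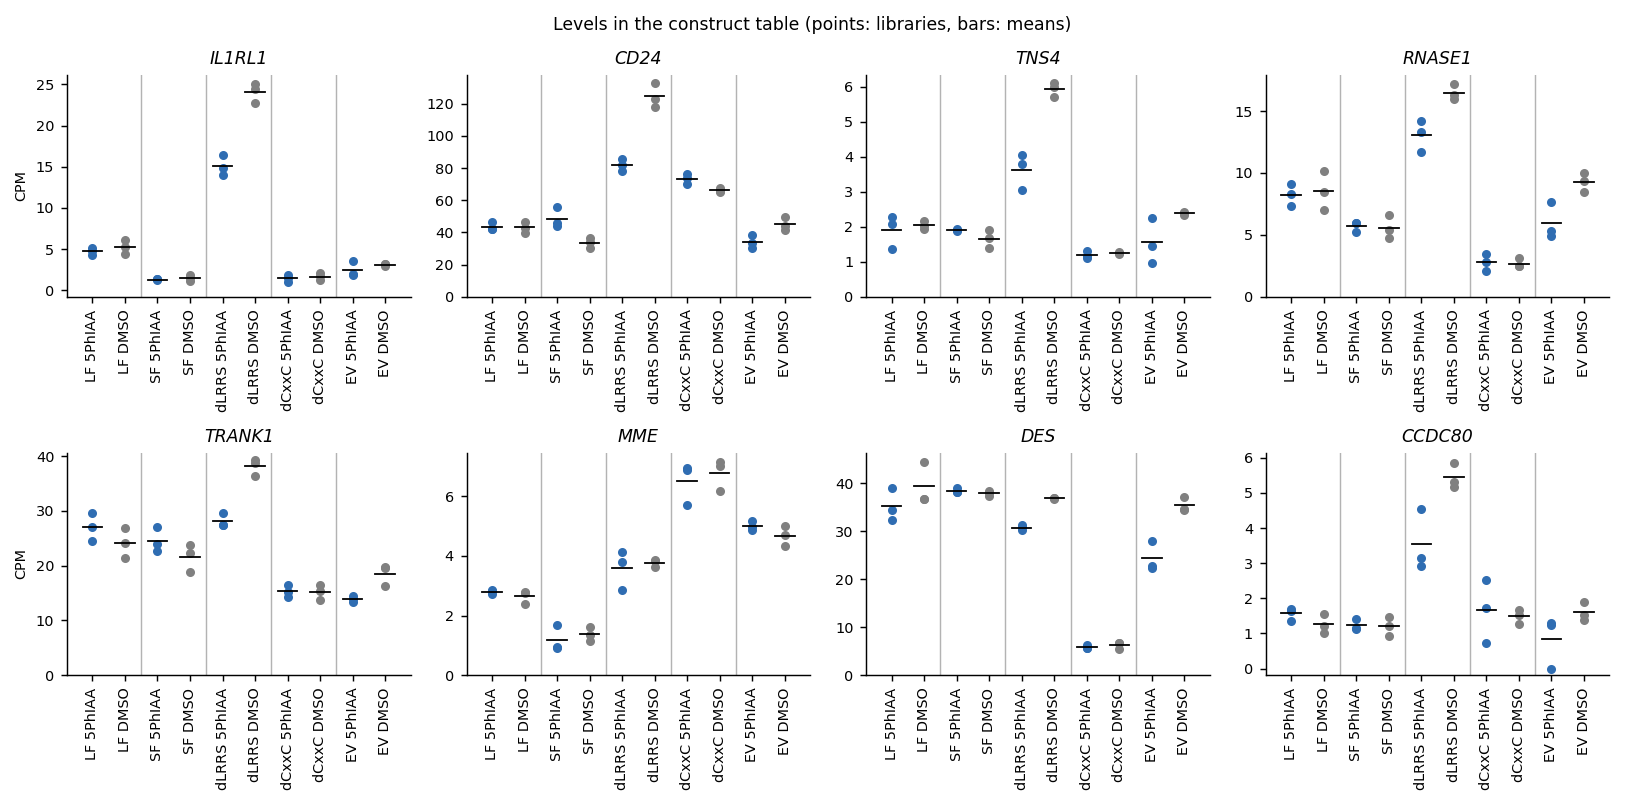
CPM (y axis) of the 8 genes in the 10 groups of the construct table (x axis), 5PhIAA left of DMSO in each line and EV at the right; points are libraries and bars are means of 3. IL1RL1 is at 22.7 to 25 CPM in dLRRS with DMSO and at 14 to 16.4 CPM there with 5PhIAA, and DES is at 5.49 to 6.76 CPM in dCxxC with DMSO.

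In the inhibitor table, with 5PhIAA against DMSO, 3 of 8 were called lower, IL1RL1, TNS4 and RNASE1 (0.239% of all genes tested), all among the values that chose the genes. IL1RL1 had 4.7, 3.69 and 3.61 CPM with 5PhIAA, against 8.97, 9.07 and 9.47 CPM with DMSO, a log2 change of -1.20 ± 0.17. TNS4 had 1.6, 1.54 and 1.34 CPM with 5PhIAA, against 3.79, 5.17 and 5.73 CPM with DMSO, a log2 change of -1.70 ± 0.26. RNASE1 had 3.09, 4.2 and 3.4 CPM with 5PhIAA, against 7.07, 7.28 and 6.94 CPM with DMSO, a log2 change of -0.99 ± 0.19. DES had 12.3, 15.1 and 16.2 CPM with 5PhIAA, against 23, 21 and 20.8 CPM with DMSO, and its change of -0.57 ± 0.12 (adjusted p = 0.0127) fell just short of the size threshold, though it was called, at -0.59 to -0.66, in 4 of 6 omissions of a library (DMSO library 2 or 3, 5PhIAA library 2 or 3). MME did not pass the test (0.02 ± 0.26, adjusted p = 0.985).

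With GSK343 alone against DMSO, 2 of 8 genes were called in either direction (4.58%). MME had 6.56, 5.82 and 9.84 CPM with GSK343, against 4.68, 3.06 and 2.97 CPM with DMSO, a log2 change of 1.05 ± 0.24 (adjusted p = 0.0117). RNASE1 had 3.16, 4.57 and 4.54 CPM with GSK343, against 7.07, 7.28 and 6.94 CPM with DMSO, a log2 change of -0.73 ± 0.19, a description since these DMSO libraries also stand in the contrasts that chose it. Each of these calls was lost in 3 of 6 omissions of a library: RNASE1 without any DMSO library, at -0.72 to -0.75, and MME without DMSO library 2 or 3 or GSK343 library 3, at 0.95, 0.93 and 0.76, with an adjusted p of at most 0.0769.

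With both agents against DMSO, 3 of 8 were called lower (1.14%), IL1RL1, RNASE1 and DES. DES had 12.1, 12.7 and 13.6 CPM with both agents, against 23, 21 and 20.8 CPM with DMSO (-0.75 ± 0.12, adjusted p = 0.000195), and MME was higher with 6.65, 7.29 and 8.67 CPM, against 4.68, 3.06 and 2.97 CPM (1.08 ± 0.23, adjusted p = 0.00273). With both agents against GSK343 alone, 3 of 8 were called lower (0.135%), IL1RL1, TNS4 and DES. IL1RL1 had 3.37, 3.68 and 4.08 CPM with both agents, against 10.2, 8.33 and 7.28 CPM with GSK343, a log2 change of -1.16 ± 0.17 among the values that chose it. TNS4 had a log2 change of -0.93 ± 0.21, past both thresholds in 3 of 6 omissions. It fell short on adjusted p without GSK343 library 2 (-0.80) or library 1 (-0.86) or 3 (-0.80) of both agents. For DES the change against GSK343 was -0.64 ± 0.12 (adjusted p = 0.00577), and -0.58 (adjusted p = 0.0505) without GSK343 library 2. The interaction, which asks whether GSK343 altered the 5PhIAA effect, was called for 0 of 8 genes (0%) and for no gene of the table. Its values were 0.04 ± 0.24 for IL1RL1, 0.77 ± 0.34 for TNS4, 0.46 ± 0.28 for RNASE1, 0.47 ± 0.16 for CD24 and -0.07 ± 0.17 for DES, which does not show that the effects were alike.

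In mAID cells of the J2_7 table, with 5PhIAA against DMSO, 2 of 8 genes were called lower (0.177%), TNS4 and RNASE1. TNS4 had 5.93, 6.17 and 5.4 CPM with 5PhIAA, against 12.2, 10.1 and 11.1 CPM with DMSO, a log2 change of -0.94 ± 0.14 that was among the values choosing the gene. RNASE1 had 5.05, 5.54 and 5.67 CPM with 5PhIAA, against 6.26, 7.6 and 11.7 CPM with DMSO (-0.66 ± 0.19, adjusted p = 0.0401). That call was lost without DMSO library 3, where it was -0.32 (adjusted p = 0.572), and without any 5PhIAA library, at -0.62 to -0.69. CD24 had 52.9, 50.3 and 51 CPM with 5PhIAA, against 64.7, 64.9 and 66.4 CPM with DMSO (-0.35 ± 0.08, adjusted p = 0.00774), without overlap and under the size threshold. GSK343 alone called 0 of 8 genes (0.662%). Both agents against DMSO called 2 of 8 lower (0.806%), TNS4 at -0.60 ± 0.15 against the DMSO libraries that also chose it and TRANK1 at -0.94 ± 0.31, and both agents against GSK343 called 1 of 8 lower (0.0819%), TNS4 at -0.74 ± 0.15. The TNS4 change against DMSO was -0.52, -0.46 and -0.52 without library 1 or 3 of both agents or DMSO library 1. That of TRANK1 fell short on adjusted p without library 1 (-0.80) or 2 (-0.82) of both agents or DMSO library 1 (-0.70). The interaction called 0 of 8 (0%).

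Between J2_7 and mAID cells with DMSO, 7 of 8 genes were called, all lower in J2_7 cells (14.2% of all genes tested in either direction, 10.7% lower). CD24 had 11.4, 14.5 and 12.2 CPM in J2_7 cells, against 64.7, 64.9 and 66.4 CPM in mAID cells (-2.36 ± 0.09, adjusted p = 1.39e-19). TNS4 had 1, 2 and 1 counts in J2_7 cells, against 12.2, 10.1 and 11.1 CPM in mAID cells, or 125, 60 and 108 counts (-6.38 ± 0.29). MME had no count in any J2_7 DMSO library, against 22, 3 and 6 counts in mAID cells, and with a floor of 3 counts over the group, or 0.0906 CPM, against the mean of 1.09 CPM it was at least 12.1-fold lower. Without mAID DMSO library 1, which held 22 of the counts, that bound was 6.2-fold. TRANK1 had 0.74, 0.472 and 0.579 CPM in J2_7 cells, against 4.11, 3.04 and 2.67 CPM in mAID cells (-2.43 ± 0.33). For TNS4 and TRANK1 these mAID libraries also stand in contrasts that chose them. DES had 23.9, 23.9 and 28.4 CPM in J2_7 cells, against 51.5, 50.5 and 59.4 CPM in mAID cells (-1.09 ± 0.10, adjusted p = 3.71e-10). Erythroid markers were called in both directions in J2_7 cells, HBE1 (2.10 ± 0.12), HBZ (1.51 ± 0.10) and HBA2 (1.47 ± 0.10) higher and TFRC (-1.11 ± 0.09) lower. Their part in the DES difference was not tested. IL1RL1 had a log2 change of -2.15 ± 0.54 (adjusted p = 0.00225), with overlap, and RNASE1 one of -0.68 ± 0.18 (adjusted p = 0.00306), which was -0.36 (adjusted p = 0.134) without mAID DMSO library 3. The mast cell marker MS4A2, called lower, was at 0 CPM in every J2_7 library, against a mean of 0.733 CPM in mAID cells. The sum of the 8 mast cell markers ran between 277 and 304 CPM in J2_7 cells, against 223 and 260 CPM in mAID cells, and without GATA2 between 0.0943 and 0.247 CPM in J2_7 cells, against 1.03 and 1.37 CPM in mAID cells. The part of these markers in the IL1RL1 difference was not tested. The J2_7 libraries came from 1 line beside 1 line of mAID cells, so the genotype and other differences between the lines cannot be told apart.

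In J2_7 cells 5PhIAA against DMSO called 0 of 8 lower (0.225%), at levels where IL1RL1, TNS4 and MME had between 0 and 10 counts per group, so that a fall of these was not detectable at this depth. GSK343 alone called 0 of 8 (2.31%). Both agents against DMSO called 1 of 8 lower (0.218%), DES, with 17.5, 16.5 and 16.3 CPM, against 23.9, 23.9 and 28.4 CPM (-0.60 ± 0.11, adjusted p = 0.000233), a change of -0.50 without DMSO library 3. Both agents against GSK343 called 2 of 8 lower (0.273%), DES and RNASE1. DES there had 17.5, 16.5 and 16.3 CPM with both agents, against 41, 30.2 and 27.7 CPM with GSK343 (-0.84 ± 0.12, adjusted p = 2.61e-05), the 41 CPM coming from the shallowest library of the table with 31 counts. RNASE1 had 4.5, 3.84 and 2.95 CPM with both agents, against 11.9, 7.71 and 7.67 CPM with GSK343, a log2 change of -1.06 ± 0.21 among the values that chose it. The interaction called 0 of 8 (0.00683%).

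Differences of response between J2_7 and mAID cells were called for 0 of 8 genes with 5PhIAA (0.00683%), for 0 of 8 with GSK343 (0.123%) and for 1 of 8 with both agents (0.437%). That gene was DES, whose log2 change with both agents in J2_7 cells minus that in mAID cells was -0.63 ± 0.15 (adjusted p = 0.0425). The mAID libraries had 61.2, 54.1 and 51.6 CPM of DES with both agents, against 51.5, 50.5 and 59.4 CPM with DMSO. The call was lost in 10 of 12 omissions of a library, with values of -0.71 to -0.53.

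**Figure D4:**
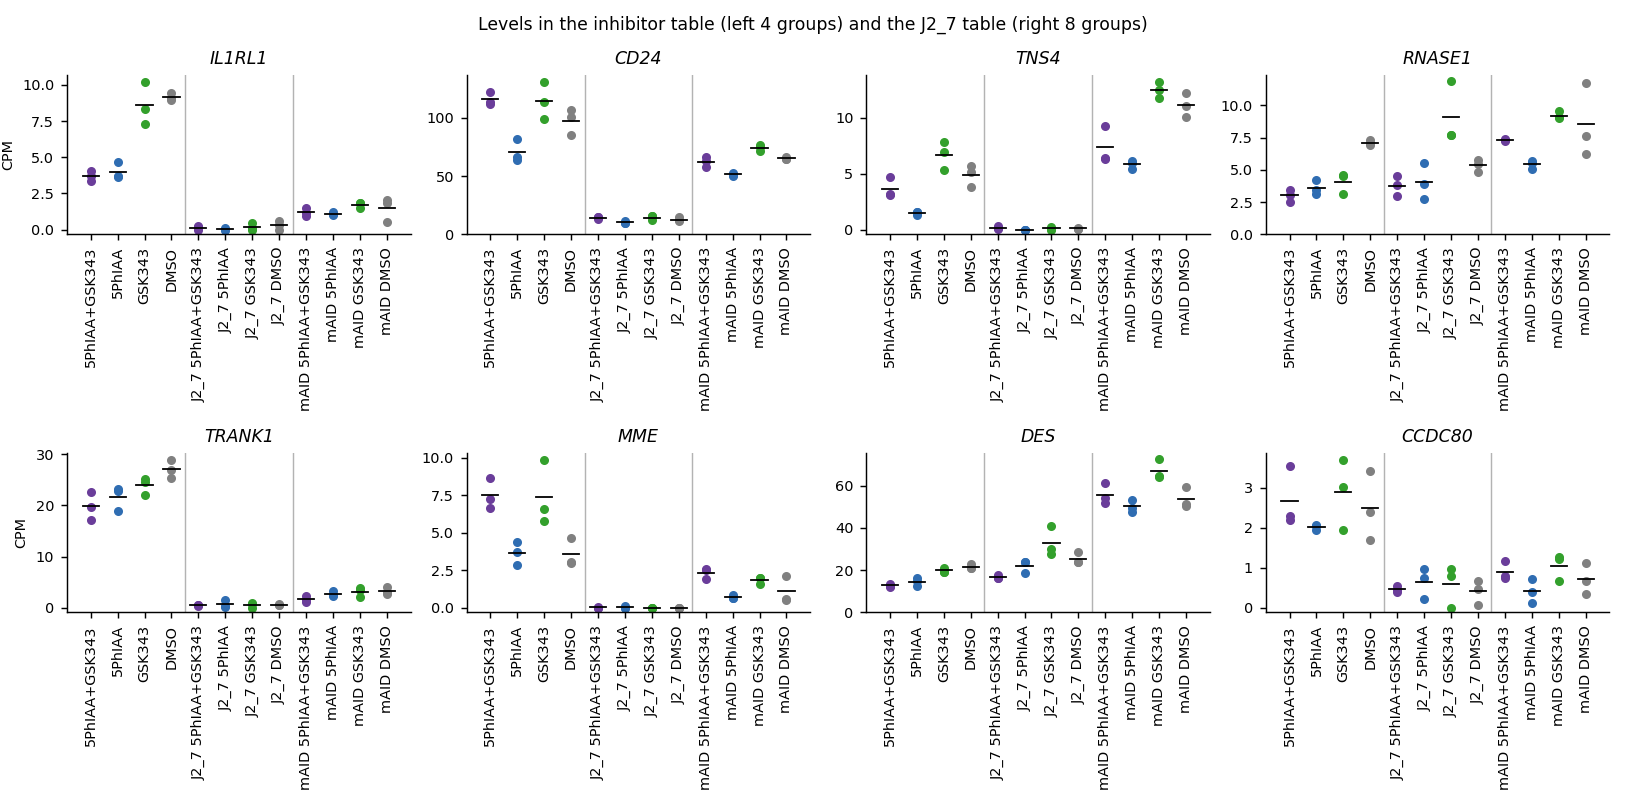
CPM (y axis) of the 8 genes in the inhibitor table (left 4 groups of the x axis) and in J2_7 and mAID cells of the J2_7 table (right 8 groups); points are libraries and bars are means of 3, and levels are comparable only within a table. TNS4 is at 10.1 to 12.2 CPM in mAID cells with DMSO and at 0.0822 to 0.189 CPM in J2_7 cells with DMSO.

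**Figure D5:**
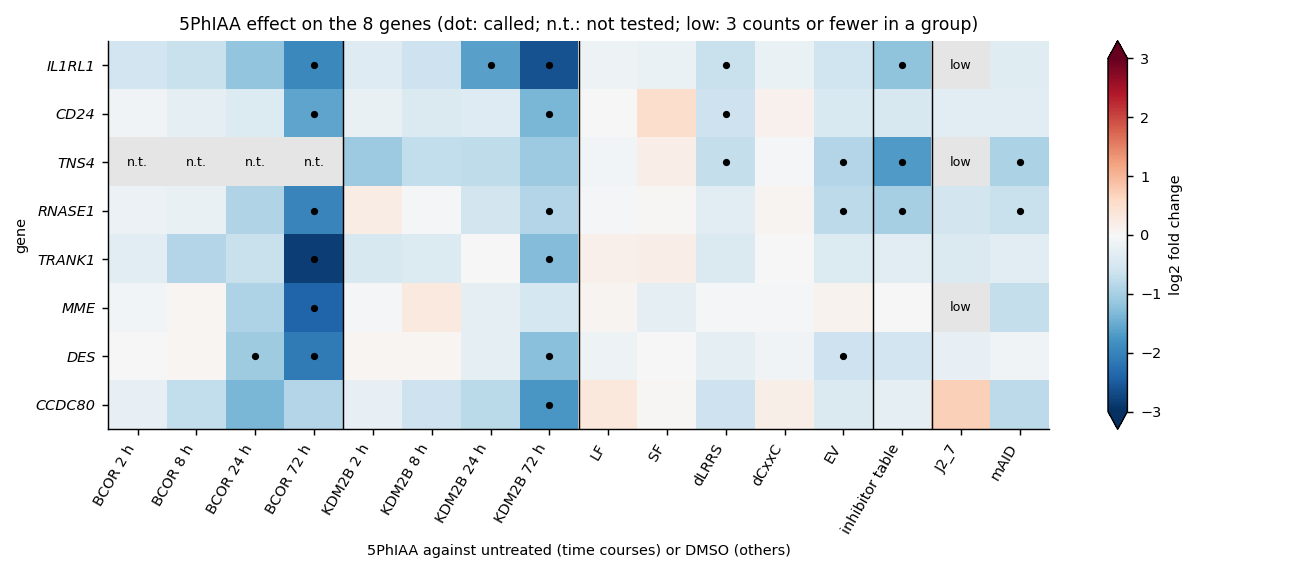
Log2 fold change (colour) of the 8 genes (y axis) with 5PhIAA against untreated or DMSO in the 16 comparisons (x axis); a dot marks a call, n.t. a gene not tested and low a group of 3 counts or fewer. Dots gather at 72 h in both time courses, where values count as used to choose the genes, so those dots are a description. LF, SF, dCxxC and J2_7 hold none.

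Genes of related function are given by counts at 72 h, when 2.37% of all genes tested were called lower and 4.74% higher in the BCOR line and 3.96% lower and 6.55% higher in the KDM2B line. No list is set apart from these shares here. Of the interleukin-1 receptor list, fixed at 15 genes without IL1RL1, 0 of 10 tested were called lower and 1 higher at 72 h in the BCOR line, and 2 of 11 lower and 0 higher in the KDM2B line. The BCOR-line gene was IL1R1, the interleukin-1 receptor, with 2.33 CPM at 72 h against 0.493 CPM untreated (log2 change 2.17 ± 0.36, adjusted p = 0.000166). The KDM2B-line genes were IL18R1, with 12.3 CPM at 72 h against 20.6 CPM untreated (-0.74 ± 0.10, adjusted p = 1.87e-05), and IL18RAP, with 12.4 CPM against 19 CPM (-0.62 ± 0.21, adjusted p = 0.0355), the paired chains of the interleukin-18 receptor. They are the neighbours of IL1RL1, at chr2:102311529-102398777 and chr2:102418689-102452565. Both were also higher in dLRRS than in EV with DMSO, IL18RAP by 1.01 ± 0.08 and IL18R1 by 0.70 ± 0.09.

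Of 14 extracellular matrix genes, 1 of 8 tested was called lower and 3 higher at 72 h in the BCOR line, and 1 of 9 lower and 3 higher in the KDM2B line. ECM1 was the lower one in both, with 3.84 CPM at 72 h against 8.88 CPM untreated in the BCOR line (-1.22 ± 0.19, adjusted p = 0.00011) and 13.8 CPM against 26.5 CPM in the KDM2B line (-0.95 ± 0.12, adjusted p = 1.28e-05). COL6A1 and LAMC1 were higher in both, COL6A1 with 2.21 CPM at 72 h against 0.213 CPM in the BCOR line (3.27 ± 0.38, adjusted p = 1.61e-06). Of 9 surface peptidases of or near the neprilysin family, 0 of 4 tested were called lower and 2 higher (ACE and ANPEP) in the BCOR line, and in the KDM2B line 1 was lower, the blood-group peptidase KEL (-0.81 ± 0.19), and 1 higher, ECE1 (1.02 ± 0.17). Of 14 intermediate filament genes, 0 of 12 tested were called lower and 1 higher in each line, PRPH, or peripherin, by 1.32 ± 0.37 in the BCOR line and 2.06 ± 0.44 in the KDM2B line. Of 16 tensins and focal adhesion genes, 0 were called lower in either line, TLN2 was higher in the BCOR line (1.37 ± 0.28), and FERMT2 was higher in both, by 1.62 ± 0.47 in the BCOR line and 1.63 ± 0.21 in the KDM2B line. Of 12 lipid-anchored and tetraspanin surface genes, CD48 was called lower (-2.45 ± 0.65) and CD9 higher (1.70 ± 0.46) in the BCOR line, and none in the KDM2B line. Of the 8 secreted ribonucleases and their inhibitor, 2 were tested in each line and 0 were called. BCOR was the 1 called gene of 10 PRC1.1 subunits in both lines, higher by 1.81 ± 0.08 at 72 h in the BCOR line and by 0.82 ± 0.06 in the KDM2B line.

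Markers of other cell types were mostly too low to be tested at 72 h, and from 0 called among so few nothing can be read. Of 10 B-lymphoid markers 1 was tested in each line and 0 were called, and of 8 fibroblast markers 1 was tested in the BCOR line and 2 in the KDM2B line, with 0 called. Of 11 muscle markers, 0 of 2 tested were called in the BCOR line, and ACTA2 was higher (2.21 ± 0.62) among 3 in the KDM2B line. Of 8 endothelial markers, ESAM was higher (1.70 ± 0.37) among 2 in the BCOR line, and 0 of 2 were called in the KDM2B line. Of the 8 mast cell and basophil markers, KIT and GATA2 had a median above 1 CPM in the 4 tables of gene IDs, and 0 of 2 tested were called at 72 h in either line. KIT, a receptor kinase, was higher in the BCOR line at 24 h, with 28.6 CPM against 12.7 CPM untreated (1.15 ± 0.26, adjusted p = 0.0128), and in EV with 5PhIAA, with 6.21 CPM against 2.76 CPM with DMSO (1.13 ± 0.21, adjusted p = 0.000203). Of the erythroid list, KLF1 was lower at 72 h in the BCOR line, with 68.1 CPM against 111 CPM untreated (-0.71 ± 0.17, adjusted p = 0.0107), and HBA2 higher in the KDM2B line, with 224 CPM against 117 CPM untreated (0.94 ± 0.23, adjusted p = 0.0121). The part of these markers in the falls was not tested.

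The genes with patterns most like each member were ranked by Pearson r of group means over the 24 groups of the 4 tables of gene IDs, after centring within each table, among 10954 genes. These correlations are a description over groups that share libraries and tables. For IL1RL1 they were GM2A (r = 0.93), IL18R1 (0.87) and IL18RAP (0.87). For DES they were AHSP, the chaperone of alpha haemoglobin (0.95), ADTRP (0.94) and ATP13A3-DT (0.93). For RNASE1 they were AKR1C1 (0.94), ST7 (0.92) and ADORA2B (0.90), and for TRANK1 CDC42BPA (0.88), S100A4 (0.87) and S100A6 (0.87). CD24 and CCDC80 were each among the 3 most like the other, at 0.80, beside UVSSA (0.83) and B2M (0.78) for CD24 and GM2A (0.85) and USP51 (0.82) for CCDC80. For MME they were CTDSPL (0.82), TENM1 (0.80) and ZIC2 (0.80). Among the members, RNASE1 stood at 0.85 with both IL1RL1 and DES, while MME stood at 0.25 with IL1RL1 and 0.13 with RNASE1. TNS4 was left out, being untested in the BCOR table.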

How the data were processed

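RNA of 96 K562 libraries in 5 tables was analysed. In 4 tables the authors deposited read counts per gene ID, and in the J2_7 table the authors deposited expected counts per gene symbol, of which 57.9% of nonzero values were whole within 1e-09; these were rounded, and 92 spike-in rows were dropped. The submitters' processing notes name Trim Galore 0.6.7, STAR, DESeq2, Strand Avadis NGS 3.0 and hg38, while the counting program, strand setting and annotation were not stated. Per the labels' protocols the libraries were made with a ribosomal RNA depletion kit, and a 3′ method is also named for the J2_7 table. Column names in the inhibitor, construct and KDM2B tables give groups only, so library numbers there follow column order, and 0 columns were left unused.

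Levels are CPM, counts over the library total multiplied by its TMM factor. Counts were fitted in R 4.3.3 with edgeR 4.0.16 (TMM scaling, filterByExpr, robust quasi-likelihood test, limma 3.58.1) over all groups of a table, with p-values adjusted by Benjamini-Hochberg over all genes tested: 14110 in the BCOR, 14524 in the KDM2B, 15910 in the construct, 13374 in the inhibitor and 14649 in the J2_7 table, and 15052 in the joint fit of both time courses. Calls required adjusted p below 0.05 together with a log2 fold change larger than 0.585 in size. Fitted fold changes carry a small prior count, so they can differ from ratios of mean CPM. The largest falls were ranked among called genes whose groups did not overlap, with a mean of at least 2 CPM. Intervals of counting error were not used, since 3 libraries stand behind each group. On simulated counts with 200 changed genes, the fit called 94% of genes lowered by 1 log2 unit in the BCOR 2 h comparison over 14110 genes. That was the highest share, the others being 92% (KDM2B and J2_7 tables), 88% (construct and inhibitor tables) and 84% (joint fit). The changed genes were drawn above a mean of 2 CPM, so these shares do not cover lower genes such as IL1RL1 and CCDC80 in the BCOR table.

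Alternatives were the size factors of DESeq2 1.42.0, DESeq2 itself, no filter, a fit of only the groups compared, omission of each library, and a block on replicate numbers. Named genes were all 8 members, the 3 genes most like each, and at most 3 called genes per direction of each list. The members and the gene lists were chosen with earlier results of these data known. No pair of libraries of a group was identical, and the lowest chi-square per gene was 1.66.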

Additional observations from a re-analysis of the deposited data

Results flagged for a closer look

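The values here are differences between groups in the response to a treatment that were past the thresholds for the difference itself in the main fit. In SF cells the log2 change with 5PhIAA minus that in EV cells was 0.98 for CD24, 0.80 for RNASE1, 0.60 for TRANK1 and 0.63 for DES. The RNASE1 value fell short in 10 of 12 omissions of a library and TRANK1 in 6 of 12, while CD24 and DES were kept. RNASE1 is a description, since its difference subtracts the EV change among the values that chose it. In dCxxC cells the difference from EV cells was 0.61 for CD24, lost in 3 of 12 omissions. For both agents, DES had a difference of -0.63 in J2_7 minus mAID cells, lost in 10 of 12 omissions. At 24 h of 5PhIAA, DES had a difference of 0.81 in the KDM2B line minus the BCOR line, lost in 4 of 12 omissions. It shares its untreated libraries with the 72 h contrasts.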

How the results depend on the processing

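No value changed direction past a threshold under any alternative run. The replicate block (BCOR and J2_7 tables) gave 1 gene lower in place of 0 at 8 h in the BCOR line (TRANK1), 4 in place of 1 at 24 h, 1 in place of 2 with 5PhIAA in mAID cells and 0 in place of 1 for the difference with both agents between J2_7 and mAID cells. Numbers were not taken to pair the libraries, since only 21 of 30 same-numbered pairs in the BCOR table (median r 0.18) and 11 of 84 in the J2_7 table (median r -0.01) correlated above 0.1. As a hint from the data, 14 of 15 BCOR-table libraries correlated best with their own number, and 1 of 24 in the J2_7 table. With no filter, counts were 4 at 24 h in the BCOR line, 2 at 24 h in the KDM2B line, 2 for LF minus EV and 2 for the line difference at 72 h. DESeq2 gave 3 at 24 h in the BCOR line, 1 with 5PhIAA and 0 with both agents in mAID cells, 0 with both agents in J2_7 cells, 0 for the difference with both agents and 2 for the line difference at 72 h. Fits of only the groups compared gave 0 for GSK343 in the inhibitor table, 1 with 5PhIAA and 1 with both agents in mAID cells and 0 for the difference with both agents. DESeq2's size factors gave 0 with both agents in J2_7 cells. Without the libraries apart, an alternative chosen after seeing the data, counts were 3 at 24 h in the BCOR line and 2 at 24 h in the KDM2B line, and at 72 h in the KDM2B line TNS4 was gained and RNASE1 lost. The cause was not tested.

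Leaving out each library in turn gave 1 to 4 genes at 24 h and 4 to 7 at 72 h in the BCOR line, and 0 to 1 at 8 h and 5 to 6 at 72 h in the KDM2B line. It gave 1 to 4 in EV and 2 to 4 in dLRRS with 5PhIAA, 0 to 1 for LF minus EV, 2 to 4 for SF minus EV and 0 to 2 for dCxxC minus EV, and with DMSO 3 to 4 for SF and 4 to 6 for dCxxC against EV, the gained calls being CD24 and MME, both higher. In the inhibitor table it gave 3 to 4 with 5PhIAA, 0 to 2 with GSK343 and 1 to 3 for both agents against GSK343. In the J2_7 table it gave 1 to 2 with 5PhIAA and 0 to 2 with both agents in mAID cells, 0 to 1 with both agents in J2_7 cells, 6 to 7 for J2_7 against mAID cells and 0 to 1 for the difference with both agents. The line difference gave 0 to 1 at 24 h and 0 to 4 at 72 h. Depth limits IL1RL1, TNS4 and CCDC80 in the BCOR table and IL1RL1, TNS4, MME and CCDC80 in the J2_7 table, where libraries often hold under 10 counts. It also limits TRANK1 in J2_7 cells.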
